A study of Mus musculus with 9 samples.

Results

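Collagen genes were followed in mouse primary white adipocytes exposed for 4 h to parathyroid hormone (PTH) or parathyroid hormone-related protein (PTHrP). Members were the genes of the array whose symbol in the platform's probe table is Col, a number, the letter a and a second number, and each was read from the brightest of its probe sets, leaving out sets that carry several symbols; 42 of the 18193 genes on the array met that rule. Stromal-vascular cells of inguinal fat from male C57BL6 mice aged 30 to 35 days were grown to confluence, induced to adipocytes for 2 days with dexamethasone, insulin, isobutylmethylxanthine and rosiglitazone, maintained in insulin and rosiglitazone, and kept in plain adipocyte medium from day 6. On day 8 after differentiation the cells received PTH(1-34) or PTHrP(1-34), each at 100 ng/ml, for 4 h; of the control cells, the sources used here do not say what they received over those hours. There were 3 arrays per group: 3 controls, 3 with PTH and 3 with PTHrP. The labels call the replicates biological without saying whether they were separate mice or separate dishes, so p-values measure the spread between these samples. The cultures are a mixed population of cells differentiated in a dish and their RNA is bulk, so fewer cells of a type and less RNA per cell cannot be told apart.

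Collagens are trimers of alpha chains wound into a helix, and each gene encodes 1 alpha chain. Fibrillar collagens give tissue its tensile strength, type IV collagen forms the mesh of the basement membrane that wraps every adipocyte, and type VI collagen forms beaded filaments that are abundant in fat. PTH and PTHrP share a receptor, PTH1R, which raises cyclic AMP; in osteoblast cultures PTH is known to lower collagen synthesis, and in fat both peptides are known for switching on thermogenic genes.

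Little change was measured among the collagen genes of these cells within 4 h. With PTH, 1 of the 42 collagen genes passed the threshold of limma's two-sided test (Benjamini-Hochberg adjusted p below 0.05 over all 18193 genes), and that gene, Col8a1, fell to 79.9% of its control mean. Over all genes the same test called 6.1% in either direction and 3.14% as lower. With PTHrP none of the 42 passed, against 5.57% of all genes; 3 of the 42 had an unadjusted p below 0.05, beside 18.3% of all genes, and limma with a trended and robust variance called 1, Col8a1. With both peptides pooled against control, Col8a1 was again the 1 gene called, while 8.4% of all genes were called in either direction and 4.57% as lower. The comparisons of PTH and of PTHrP use the same 3 control arrays, so they are not independent of each other.

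The median signal per array was 48.3 to 52.7, and precision is limited by having 3 arrays a group. A signal is an intensity on the deposited scale, and the dim level used to separate measured from faint genes was 29.0, the 40th percentile of the mean signal of all probe sets that are not array controls. Markers of the labelled cell type were present: 8 of the 8 adipocyte markers measured were above the dim level, among them Adipoq at 13618 ± 300.3 (SD, n = 3) in the controls. Of 11 preadipocyte and fibroblast markers 10 were above it as well, so which cells of the dish the collagen transcripts come from cannot be told apart. Of 6 epithelial markers 5, and of 7 endothelial markers 4, lay at or below the dim level. The ratio of the 3' to the 5' actin control probe sets was 1.45 to 1.51 in the controls, 1.59 to 1.65 with PTH and 1.52 to 1.61 with PTHrP, so every treated array lay above every control; its part in the results below was not tested.

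In the controls 26 of the 42 collagen genes were above the dim level. They covered 9 of 11 fibrillar genes, 4 of 6 basement membrane genes, 3 of 5 beaded filament genes, 4 of 9 genes of fibril-associated collagens, 2 of 3 short chain genes, both multiplexins (Col15a1 and Col18a1), 1 of 4 transmembrane genes and 1 of 2 others. The 16 at or below it held chains known from other tissues: Col2a1, Col11a2, Col9a1, Col9a2, Col9a3 and Col10a1 of cartilage, and Col4a3 and Col4a4 of the kidney filter. The rest were Col6a4, Col6a5, Col13a1, Col17a1, Col20a1, Col22a1, Col25a1 and Col26a1, and over all 16 the signals ran from 1.0 to 37.8 across the 9 arrays. Replicates of the 26 measured genes were tight, with a coefficient of variation within groups of 0.825% to 18.1% and a median of 4.93%. For the 16 faint genes it was 11.7% to 127%. Their log2 changes ran from -0.42 to 0.28 with PTH and from -0.36 to 0.17 with PTHrP, none past the threshold. Signals of different probe sets depend on the probes and are not ranked against each other.

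**Figure D1:**
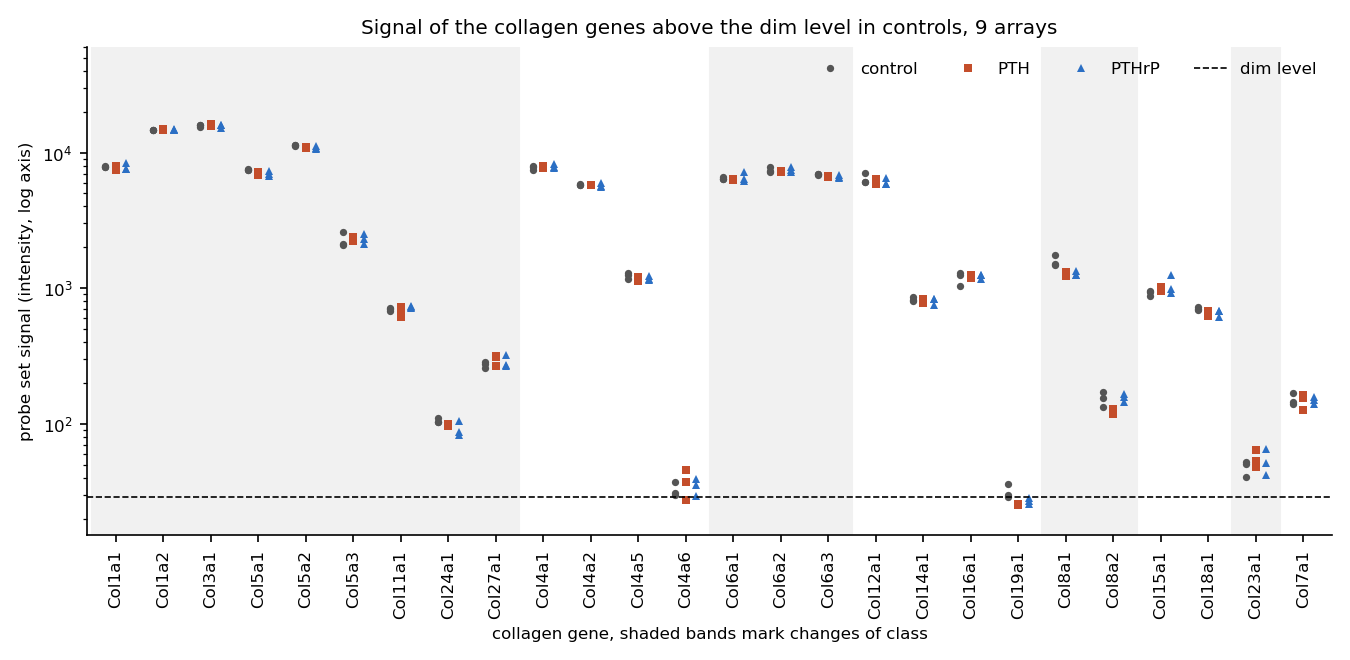
Signal (intensity, log axis) of the 26 collagen genes above the dim level in the controls, 1 point per array, with 3 control (circles), 3 PTH (squares) and 3 PTHrP arrays (triangles); grey and white bands separate the collagen classes and the dashed line is the dim level of 29.0. The 3 groups of a gene lie close together throughout, and for Col8a1 the 6 treated arrays, at 1220.4 to 1326, lie below the 3 controls, at 1477 to 1752.

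Across the 26 measured genes, the 95% confidence intervals of the change lay within 1.5-fold in either direction for all 26 with PTH and for all 26 with PTHrP. Of the 12850 genes above the dim level, 11834 and 11865 had intervals that narrow. The collagen intervals lay within 1.3-fold for 22 genes with PTH, the exceptions being Col4a6, Col8a1, Col8a2 and Col23a1, and for 23 with PTHrP, the exceptions being Col8a1, Col15a1 and Col23a1. Of the 12850 genes above the dim level, 9477 with PTH and 9486 with PTHrP had intervals within 1.3-fold. The median log2 change was -0.038 with PTH and -0.010 with PTHrP, beside -0.0023 and -0.011 for those 12850 genes. The median size of the change without its sign was 0.051 with PTH and 0.056 with PTHrP, beside 0.088 and 0.087 for them. The summed signal of the 42 genes was 108343 ± 1308 (SD, n = 3) in the controls, 106424 ± 744 with PTH (98.2% of control) and 106628 ± 3127 with PTHrP (98.4%), a description given without a test.

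**Figure D2:**
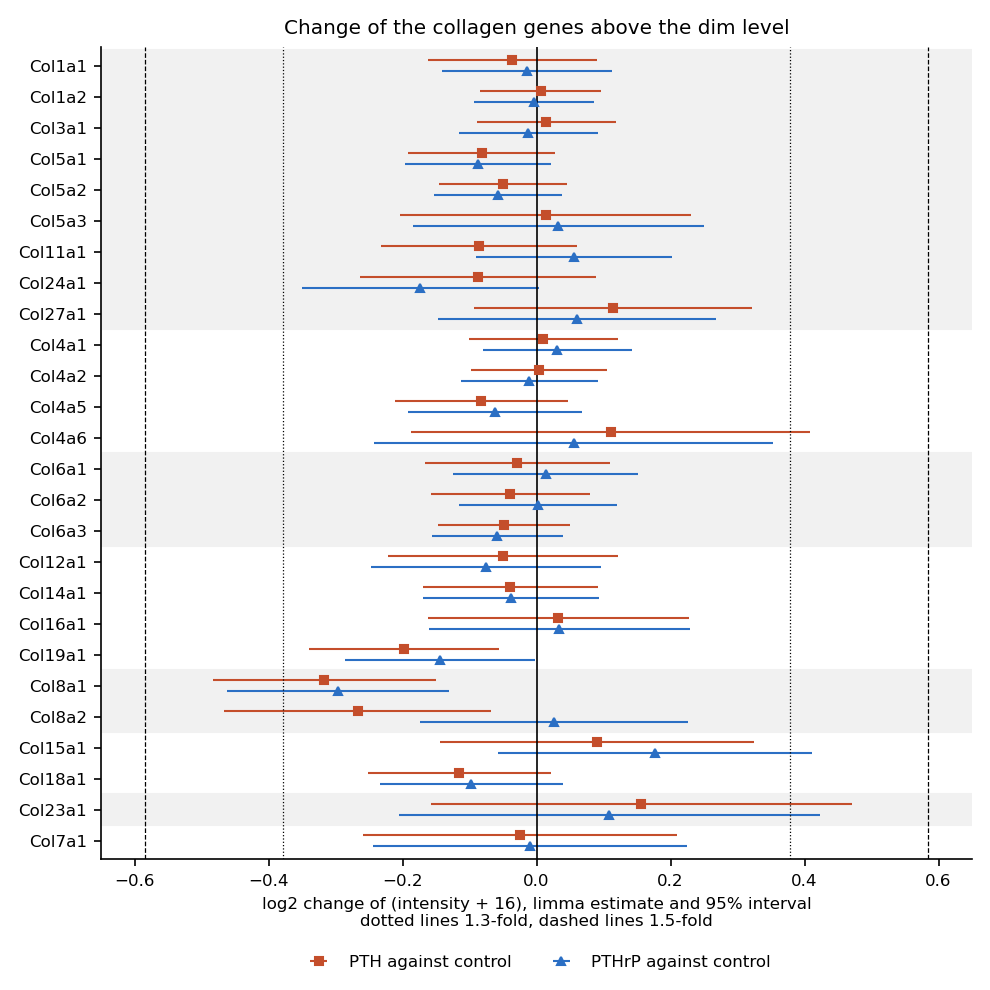
Log2 change of intensity + 16 against control with its 95% interval (limma, 3 arrays per group) for the 26 measured collagen genes, PTH as squares and PTHrP as triangles, with dotted lines at 1.3-fold and dashed lines at 1.5-fold. All intervals stay inside the dashed lines, and Col8a1 lies to the left of 0 with both peptides.

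Col8a1 encodes the alpha 1 chain of type VIII collagen, a short chain collagen that builds lattices in the cornea and around blood vessels. Its brightest probe set (1455627_at; gene identifier 12837) read 1477, 1752 and 1499 in the controls, 1307, 1249 and 1220.4 with PTH and 1244, 1326 and 1259.7 with PTHrP. Every treated array was below every control. The log2 change was -0.32 ± 0.072 (SE; 95% interval -0.48 to -0.15; limma adjusted p = 0.0404) with PTH and -0.30 ± 0.072 (-0.46 to -0.13; adjusted p = 0.0549) with PTHrP, so the first passed the threshold and the second just missed it. Both peptides pooled gave -0.31 (-0.45 to -0.16; adjusted p = 0.0206). The PTH call was lost without any 1 of control replicates 2 and 3, PTH replicates 1, 2 and 3 and PTHrP replicates 1, 2 and 3 (adjusted p 0.0566 to 0.146), and it held without control replicate 1 (adjusted p = 0.0481). It was also lost with the mean of the gene's probe sets (adjusted p = 0.107), with a pseudocount of 1 (0.0561) and with only the control and PTH arrays in the fit (0.0902). In all it was lost in 12 of 20 alternatives, while the log2 change lay between -0.36 and -0.24 in every one of them. The call for both peptides was lost without any 1 of control replicate 2 and PTH replicates 2 and 3 (adjusted p 0.0501 to 0.0554) and with the mean of the probe sets (0.0787).

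Col8a1 has 3 probe sets with its symbol alone, and they can be set side by side for their changes. The second (1418440_at) read 1022, 1273 and 1014 in the controls, 904, 916 and 881 with PTH and 786, 984 and 874 with PTHrP. It gave log2 changes of -0.28 with PTH and -0.32 with PTHrP, close to the brightest set, but with a wider error (adjusted p = 0.225 and 0.18 when all 34945 probe sets with 1 symbol were tested by limma). The third (1418441_at) was much dimmer, with a mean signal of 47.0 that is above the dim level of 29.0. It gave -0.15 with PTH and 0.011 with PTHrP, so it showed no fall with PTHrP. In that test of single probe sets 0 of the 82 collagen probe sets were called with PTH and 0 with PTHrP; with both peptides 2 were, the brightest of Col8a1 (adjusted p = 0.0295) and the dimmer set of Col5a2 (0.05).

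The promoter windows of 4 collagen genes are shown because the data bear on them: Col8a1 as the gene that fell, Col24a1 as the collagen gene whose window holds a full cyclic AMP response element, the site bound by CREB when PTH1R signals, and Col4a1 with Col4a2 as chains whose windows overlap and whose changes were both small. Windows run from 250 bases before to 50 bases after the annotated start, from RefSeq on GRCm38.p6, on the strand of the gene and 5' to 3'. Capitals mark matches, on either strand, to the response element TGACGTCA, its core TGACG, the AP-1 site TGANTCA, the TATA box TATAAA or the CCAAT box; the core lies within the full element. The windows are chr16:57754688-57754987 (minus strand), chr3:145292222-145292521 (plus), chr8:11312777-11313076 (minus) and chr8:11312555-11312854 (plus).
Col8a1: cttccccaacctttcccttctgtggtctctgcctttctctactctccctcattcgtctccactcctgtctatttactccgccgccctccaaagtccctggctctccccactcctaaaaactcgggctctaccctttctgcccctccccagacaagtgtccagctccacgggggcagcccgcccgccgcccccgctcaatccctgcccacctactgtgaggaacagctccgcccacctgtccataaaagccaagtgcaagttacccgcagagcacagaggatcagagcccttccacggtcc
Col24a1: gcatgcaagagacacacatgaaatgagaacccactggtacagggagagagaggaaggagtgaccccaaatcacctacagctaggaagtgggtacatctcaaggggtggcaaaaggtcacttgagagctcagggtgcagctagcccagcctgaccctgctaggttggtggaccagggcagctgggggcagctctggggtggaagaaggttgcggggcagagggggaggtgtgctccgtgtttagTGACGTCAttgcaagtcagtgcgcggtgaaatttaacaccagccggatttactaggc
Col4a1: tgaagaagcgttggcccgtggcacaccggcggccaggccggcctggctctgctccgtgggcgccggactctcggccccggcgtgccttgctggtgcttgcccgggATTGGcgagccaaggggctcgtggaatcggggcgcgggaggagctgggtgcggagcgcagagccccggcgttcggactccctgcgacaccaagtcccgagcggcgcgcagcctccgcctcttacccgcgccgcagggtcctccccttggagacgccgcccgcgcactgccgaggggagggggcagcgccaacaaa
Col4a2: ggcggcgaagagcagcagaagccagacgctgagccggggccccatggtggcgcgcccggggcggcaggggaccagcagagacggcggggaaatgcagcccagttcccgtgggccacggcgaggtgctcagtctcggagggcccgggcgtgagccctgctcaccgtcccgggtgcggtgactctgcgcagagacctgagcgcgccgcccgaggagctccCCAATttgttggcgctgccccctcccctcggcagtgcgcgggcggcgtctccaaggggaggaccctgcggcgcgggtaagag
The Col8a1 window held none of these letters, which says only that they are not in this window. The windows of Col4a1 and Col4a2 lie on opposite strands and overlap at their 3' ends by 78 bases, with 1 CCAAT match in each.

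Of the 42 collagen genes 33 matched an entry of the promoter table, with 36 windows. The full element TGACGTCA was in 2.78% of the collagen windows (1 of 36, Col24a1) and in 1.79% of all 32851 windows, and its core TGACG in 11.1% and 20.8% (Col4a5, Col7a1, Col11a2 and Col24a1). An AP-1 site TGANTCA was in 2.78% of the collagen windows (Col6a1) and in 7.81% of all. TATAAA was in 13.9% and 13.6%, and CCAAT, searched on both strands, in 36.1% and 37.4%. The median GC content was 59.8% in the collagen windows and 52.7% in all. These are descriptions of the windows.

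Col24a1 itself, a minor fibrillar chain best known from bone and cornea, read 103, 102 and 109 in the controls, 95.8, 99.7 and 97.5 with PTH and 87.0, 105 and 82.5 with PTHrP. All 3 PTH arrays were below the controls, while the PTHrP arrays overlapped them through PTHrP replicate 2. The log2 change was -0.088 (-0.26 to 0.089; limma adjusted p = 0.63) with PTH and -0.17 (-0.35 to 0.0029; adjusted p = 0.282) with PTHrP. Without PTHrP replicate 2 the change with PTHrP was -0.26 and passed (adjusted p = 0.0447).

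Col8a2 encodes the other chain of type VIII collagen. Its 1 probe set (1434667_at; gene identifier 329941) read 133, 172 and 154 in the controls, 118, 126 and 127 with PTH and 157, 165 and 145 with PTHrP. The PTH arrays lay below all controls and all PTHrP arrays, and the PTHrP arrays lay among the controls. The log2 change was -0.27 ± 0.087 (SE; -0.47 to -0.067; limma adjusted p = 0.132) with PTH, which did not pass, and 0.026 ± 0.087 (-0.17 to 0.23; adjusted p = 0.921) with PTHrP. Without control replicate 1, the lowest control, the change with PTH passed (-0.35, adjusted p = 0.0446). Set directly against PTHrP, PTH gave a log2 difference of -0.29 (-0.49 to -0.093; unadjusted p = 0.00941, adjusted p = 0.999 by limma), which is not a call. The remaining short chain gene, Col10a1 of the growth plate, read 1.46 to 9.89 in the 9 arrays.

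**Figure D3:**
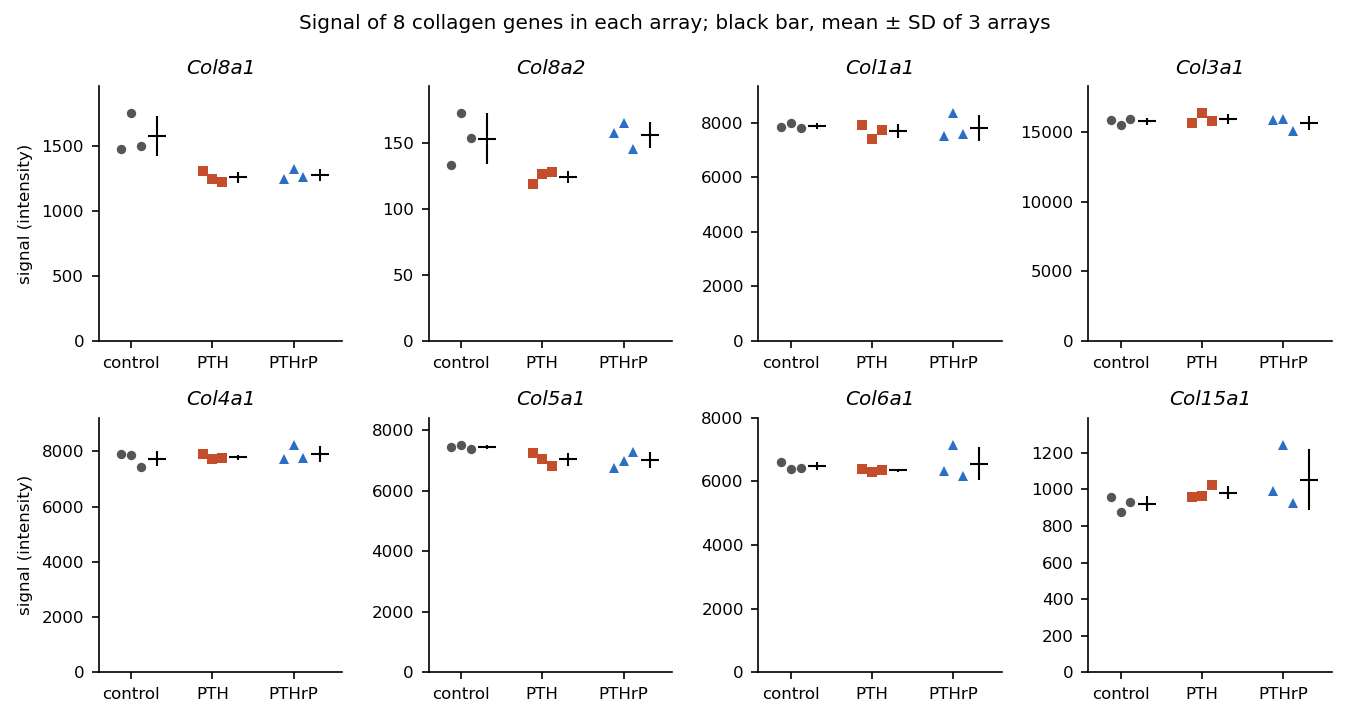
Signal (intensity, linear axes from 0) of 8 collagen genes in every array, with control as circles, PTH as squares and PTHrP as triangles; the black bar beside each group is the mean ± SD of its 3 arrays. Col8a1 reads 1477 to 1752 in the controls, 1220.4 to 1307 with PTH and 1244 to 1326 with PTHrP, Col8a2 reads 133 to 172, 118 to 127 and 145 to 165, and in the other 6 genes the treated means are 94.2% to 114% of the control mean.

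PTH and PTHrP, fragments of the same length given at the same mass dose for the same time, were also compared directly. No collagen gene differed between them past the threshold, as 0% of all genes did; 2 of the 42, Col8a2 and the faint Col9a3, had an unadjusted limma p below 0.05, beside 4.01% of all genes. Of the 26 measured genes 25 had an interval of the PTH minus PTHrP difference within 1.3-fold and all 26 within 1.5-fold. Of the 12850 genes above the dim level, 10942 had it within 1.3-fold and 12353 within 1.5-fold. For Col8a1 the difference was -0.020 (-0.19 to 0.15). The arrays of the peptides did not overlap for 2 of the 26, Col8a2 and Col19a1, both lower with PTH, against 9.01% of all genes above the dim level in either direction and 3.3% as lower.

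None of the fibril formers changed past the threshold with either peptide. Col1a1, whose product joins Col1a2's in type I collagen, read 7858, 7992 and 7797 in the controls, 7917, 7416 and 7732 with PTH and 7511, 8347 and 7575 with PTHrP. Its groups overlapped, with log2 changes of -0.036 (-0.16 to 0.090) with PTH and -0.015 (-0.14 to 0.11) with PTHrP. Col1a2 read 14781, 14769.8 and 14688 in the controls, 14782, 14922 and 14715 with PTH and 14909.9, 14586 and 14632 with PTHrP, and changed by 0.0058 (-0.084 to 0.10) and -0.0037 (-0.093 to 0.086). Col3a1, the chain of type III collagen, which mixes with type I in pliable tissue, read 15866, 15479.6 and 15959.7 in the controls, 15616, 16347 and 15825 with PTH and 15899, 15934 and 15081 with PTHrP. It too overlapped throughout (0.014 with PTH, -0.090 to 0.12; -0.012 with PTHrP, -0.12 to 0.092).

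Both Col3a1 and Col1a2 are read near the top of the scale. The Col3a1 signal was 86.8% to 89.8% of the brightest probe set of its array and the Col1a2 signal 80.1% to 85.5%, and whether signals so high can register a further rise was not tested. Dimmer probe sets of the same genes give a second reading. The second Col3a1 set (1427884_at, mean signal 6306) changed by 0.080 with PTH and 0.13 with PTHrP (limma adjusted p = 0.521 and 0.276). The second Col1a2 set (1423110_at, 11005) changed by -0.072 and -0.070 (adjusted p = 0.497 and 0.525), and another (1446326_at, 543) by -0.41 and -0.33 (0.262 and 0.39). Col1a2 was the gene whose probe sets disagreed most, by 0.41 on the log2 scale with PTH and 0.33 with PTHrP; over the 14 genes with several probe sets above the dim level the median spread was 0.074 and 0.071.

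Type V collagen sits inside type I fibrils and sets their width. Col5a1 read 7446, 7509.7 and 7374 in the controls, 7242, 7036 and 6817 with PTH and 6758, 6986 and 7284 with PTHrP. All treated arrays were below all controls, at 94.5% of the control mean with PTH and 94.2% with PTHrP. The shift did not pass limma's threshold (-0.082 ± 0.048, adjusted p = 0.414, and -0.087 ± 0.048, adjusted p = 0.397). Col5a2, its partner chain, read 11416, 11189.6 and 11314 in the controls, 11006, 10912 and 10833 with PTH and 10667, 11197 and 10729 with PTHrP. The PTH arrays were below the controls and PTHrP replicate 2 was not, with log2 changes of -0.050 (-0.15 to 0.046) and -0.058 (-0.15 to 0.038). The dimmer Col5a2 set (1450625_at, 2800.4) gave -0.19 and -0.20 (adjusted p = 0.113 and 0.0954).

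Col27a1, a fibrillar chain of cartilage, read 285, 278 and 258 in the controls, 317, 267 and 309.7 with PTH and 322, 268 and 271 with PTHrP. The groups overlapped, and the changes were 0.11 (-0.093 to 0.32) with PTH and 0.060 (-0.15 to 0.27) with PTHrP. The remaining measured fibrillar genes, Col5a3 and Col11a1, changed by 0.014 and -0.086 with PTH and by 0.032 and 0.056 with PTHrP. Over the 9 measured fibrillar genes the log2 changes ran from -0.088 to 0.11 with PTH and from -0.17 to 0.060 with PTHrP, none past the threshold.

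In the basement membrane, Col4a1 and Col4a2 encode the chains of the ubiquitous type IV network. Col4a1 read 7905, 7886 and 7435 in the controls, 7894, 7711 and 7773 with PTH and 7714, 8239 and 7771 with PTHrP, and Col4a2 read 5752, 5755 and 5833 in the controls, 5786, 5790.5 and 5809 with PTH and 5667, 5988 and 5565 with PTHrP. Neither group of treated arrays separated from the controls. The log2 changes of Col4a1 were 0.0099 (-0.10 to 0.12) with PTH and 0.030 (-0.081 to 0.14) with PTHrP. Those of Col4a2, whose window overlaps that of Col4a1, were 0.0038 (-0.10 to 0.11) and -0.011 (-0.11 to 0.091). Col4a5 and Col4a6, neighbours on the X chromosome, belong to specialised type IV networks. Col4a5 changed by -0.083 and -0.062. Col4a6 lay close to the dim level (29.8, 30.7 and 37.0 in the controls, 45.2, 27.6 and 37.5 with PTH and 29.2, 38.9 and 35.3 with PTHrP) and changed by 0.11 (-0.19 to 0.41) and 0.055 (-0.24 to 0.35), and with PTH that interval is too wide to place it within 1.3-fold.

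The beaded filament genes did not pass the test, and their intervals were narrow. Col6a1, Col6a2 and Col6a3 encode the chains of type VI collagen, whose alpha 3 chain releases the fragment endotrophin in fat. Col6a1 read 6616, 6404 and 6419 in the controls, 6384, 6308 and 6358 with PTH and 6331, 7150.3 and 6182 with PTHrP. PTHrP replicate 2 was the highest of the 9 arrays. Col6a2, its neighbour on the chromosome, read 7797, 7354 and 7220.5 in the controls, 7311, 7287 and 7159.8 with PTH and 7153, 7795 and 7456 with PTHrP. Col6a3 read 6932, 6995 and 6784 in the controls, 6694, 6579 and 6747 with PTH and 6448, 6800.3 and 6641 with PTHrP. The PTH arrays lay just below the controls for Col6a1 and Col6a3 (98.0% and 96.7% of the control mean). The log2 changes over the 3 genes ran from -0.049 to -0.029 with PTH and from -0.058 to 0.014 with PTHrP, with every interval between -0.17 and 0.15.

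Among the collagens that sit on the surface of fibrils, Col12a1, known from tendon and ligament, read 6114, 7027 and 6044 in the controls, 6371, 5826 and 6296 with PTH and 5888, 6441 and 5854 with PTHrP. Control replicate 2 was the highest array and the groups overlapped (-0.051 with PTH, -0.22 to 0.12; -0.075 with PTHrP, -0.25 to 0.10). A dimmer Col12a1 set (1427391_a_at, mean signal 588) gave -0.22 with PTH and -0.16 with PTHrP (limma adjusted p = 0.284 and 0.494). In that set every PTH array was below every control, while the PTHrP arrays overlapped the controls. Col19a1 read 35.8, 29.9 and 29.0 in the controls, 25.6, 25.5 and 25.1 with PTH and 28.5, 26.8 and 25.6 with PTHrP. All treated arrays were below all controls, but the signal straddles the dim level, and the log2 changes of -0.20 (adjusted p = 0.117) and -0.14 (adjusted p = 0.266) did not pass. Its other sets (1456953_at and 1421698_a_at), at or below the dim level, gave 0.12 and -0.038 with PTH and -0.075 and -0.13 with PTHrP. Col14a1 and Col16a1 changed by -0.039 and 0.032 with PTH and by -0.038 and 0.034 with PTHrP.

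The multiplexins anchor basement membranes to the matrix around them, and the end of the Col18a1 product is cut off as endostatin. Col15a1 read 958, 878 and 932 in the controls, 959, 964 and 1026 with PTH and 989.9, 1244 and 926 with PTHrP. PTHrP replicate 2 was the highest array, and the change was 0.090 (-0.14 to 0.32) with PTH and 0.18 (-0.057 to 0.41) with PTHrP. Col18a1 read 692, 698 and 722 in the controls, 626, 677 and 644 with PTH and 609, 683 and 682 with PTHrP. All treated arrays were below all controls, at 92.2% and 93.4% of the control mean, without passing the test (-0.12, adjusted p = 0.351; -0.10, adjusted p = 0.455). Col23a1, the 1 transmembrane collagen above the dim level, read 52.1, 50.7 and 40.2 in the controls, 48.3, 53.0 and 63.6 with PTH and 51.7, 42.1 and 65.3 with PTHrP, and its changes of 0.16 (-0.16 to 0.47) and 0.11 (-0.21 to 0.42) have wide intervals. Col7a1, the anchoring fibril of skin, changed by -0.024 and -0.010.

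Counted by overlap of the arrays, 10 of the 26 measured genes had no overlap between PTH and control, 9 of them lower (Col5a1, Col5a2, Col6a1, Col6a3, Col8a1, Col8a2, Col18a1, Col19a1 and Col24a1) and 1 higher (Col15a1). That is 38.5% beside 32.5% of all genes above the dim level. With PTHrP 5 of the 26 had no overlap, 4 lower (Col5a1, Col8a1, Col18a1 and Col19a1) and 1 higher (Col11a1), or 19.2% beside 27.8%. Counted as lower alone, the shares were 34.6% of the collagen genes beside 16.6% of all genes above the dim level with PTH, and 15.4% beside 15.2% with PTHrP. Of those genes 15.8% with PTH and 12.6% with PTHrP lay higher, where the collagens had 1 gene each. These shares are descriptions with no test, and the PTH shifts other than that of Col8a1 did not pass limma's threshold.

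Genes that build, bind, sense or regulate collagen are given from lists chosen by role. Of 29 measured genes for modification, folding, trimming and crosslinking, 3 rose and 0 fell with PTH, and the same 3 rose with PTHrP, where 2.96% and 2.54% of all genes were called higher. The median log2 change of the list was -0.032 and -0.048, beside -0.0027 and -0.0050 for all genes. The prolyl and lysyl hydroxylases and the collagen chaperone Serpinh1 were not among those called.

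Tll1, a tolloid protease that trims the tail of procollagens, read 17.3, 24.1 and 13.6 in the controls, 55.0, 53.3 and 49.5 with PTH and 48.0, 49.98 and 42.4 with PTHrP. It rose from below the dim level in every control to above it in every treated array, with log2 changes of 1.01 ± 0.11 (SE; limma adjusted p = 0.00155) with PTH and 0.88 (adjusted p = 0.00297) with PTHrP on the log2(intensity + 16) scale. Because it starts so low, the size depends on the pseudocount, from 0.50 with 64 to 1.51 with 1 for PTH; the call held in all 20 alternatives with each peptide. Adamts3, which trims the head of procollagens, read 51.0, 41.2 and 46.2 in the controls, 66.0, 75.3 and 75.5 with PTH and 74.5, 86.6 and 65.6 with PTHrP. All treated arrays were above all controls (0.51, adjusted p = 0.0202; 0.56, adjusted p = 0.0144). The call with PTH was lost without any 1 of control replicates 2 and 3 and PTH replicates 2 and 3 (adjusted p 0.0628 to 0.0858), that with PTHrP without any 1 of control replicate 2 and PTHrP replicate 1 (adjusted p = 0.055 in each case), and both with the mean of its 2 probe sets (0.352 and 0.341).

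Tgm2, a transglutaminase that crosslinks matrix proteins, read 5349, 5559 and 5398 in the controls, 6366, 6345 and 6465 with PTH and 6217, 6331 and 6238 with PTHrP. Its replicates were close together and no arrays overlapped, with rises of 0.23 (adjusted p = 0.0139) and 0.20 (adjusted p = 0.0264). The PTH call was lost without any 1 of PTH replicates 2 and 3 (adjusted p 0.0534 to 0.0713) and the PTHrP call without any 1 of control replicates 1, 2 and 3, PTH replicates 2 and 3 and PTHrP replicates 1, 2 and 3 (adjusted p 0.0516 to 0.0802); with both peptides together it held in all 19 alternatives. Loxl3, a lysyl oxidase homologue, read 1504, 1691 and 1753 in the controls, 1268, 1198 and 1338 with PTH and 1022, 1280.1 and 1355 with PTHrP. It did not pass with PTH (-0.37, adjusted p = 0.0949) or PTHrP (-0.44, adjusted p = 0.0591), but fell with both together (-0.41, adjusted p = 0.0353); that call was lost without any 1 of control replicates 2 and 3, PTH replicates 1, 2 and 3 and PTHrP replicate 2 (adjusted p 0.0527 to 0.132).

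Of 22 proteins that bind collagen fibrils or basement membranes, all above the dim level, 4 fell and 0 rose with PTH, and 2 fell and 0 rose with PTHrP; of all genes 3.14% and 3.03% were called lower. Lumican, fibromodulin and PRELP are small leucine-rich proteoglycans that coat collagen fibrils. Lum read 1356, 1394 and 1365 in the controls, 1051, 1108 and 1016 with PTH and 1325, 1204 and 1138 with PTHrP. All treated arrays were below the controls; the fall passed with PTH (-0.37, adjusted p = 0.0135) and not with PTHrP (-0.17, adjusted p = 0.211), and the difference between the peptides (-0.20) had an adjusted p of 0.999. Prelp read 1979.5, 2076 and 2011 in the controls, 1604, 1649.6 and 1606 with PTH and 1602, 1758 and 1452 with PTHrP, and fell with PTH (-0.32, adjusted p = 0.0337) and PTHrP (-0.34, adjusted p = 0.0298). Fmod read 3929, 4157 and 3951 in the controls, 3560.1, 3303 and 3284 with PTH and 3524, 3396 and 3697 with PTHrP, falling with PTH (-0.25, adjusted p = 0.0389); with PTHrP it changed by -0.18 (adjusted p = 0.114). Lama4, the laminin alpha 4 chain of the basement membrane around adipocytes, read 2206, 2193 and 2131 in the controls, 1873, 1817 and 1872 with PTH and 1818, 1875 and 1823 with PTHrP. It fell with both (-0.23, adjusted p = 0.0169; -0.24, adjusted p = 0.0146). Ogn, osteoglycin, changed by -0.26 (adjusted p = 0.101) and -0.15 (adjusted p = 0.376).

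These calls sit close to the threshold. For Lum the PTH call was lost without any 1 of control replicate 2 and PTH replicates 1 and 3 (adjusted p 0.0518 to 0.0648). For Prelp the PTH call was lost without any 1 of control replicates 1, 2 and 3, PTH replicates 1, 2 and 3 and PTHrP replicate 1 (adjusted p 0.0577 to 0.121) and the PTHrP call without any 1 of control replicates 1, 2 and 3, PTH replicates 1, 2 and 3 and PTHrP replicates 1 and 3 (adjusted p 0.0528 to 0.0966), as both were with the mean of its probe sets (0.104 and 0.0914). For Fmod the PTH call was lost without any 1 of control replicates 1, 2 and 3, PTH replicates 2 and 3 and PTHrP replicate 1 (adjusted p 0.0643 to 0.148) and with the mean of its probe sets (0.0634). For Lama4 the PTH call was lost without any 1 of control replicates 1 and 2 and PTH replicates 1, 2 and 3 (adjusted p 0.0525 to 0.0725) and the PTHrP call without any 1 of control replicates 1 and 2 and PTHrP replicate 1 (adjusted p 0.0508 to 0.0621); pooled, both peptides kept the Lama4 call in all 19 alternatives.

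The receptors for collagen did not pass: 0 of 11 integrins, discoidin receptors and uptake receptors were called by limma with either peptide, where 3 had an unadjusted p below 0.05 with PTH and 3 with PTHrP, beside 19% and 18.3% of all genes. The discoidin receptor Ddr1 changed by -0.22 (adjusted p = 0.238) with PTH and -0.21 (0.264) with PTHrP, and Ddr2 by 0.19 (0.212) and 0.21 (0.167). Adgrg1, at or below the dim level in the controls, changed by -0.11 (limma adjusted p = 0.825) and -0.23 (0.582). The list of collagen-cutting enzymes held the proteases Mmp2, Mmp8, Mmp9, Mmp13, Mmp14, Ctsk and Fap and the inhibitors Timp1, Timp2 and Timp3. Mmp13 was at or below the dim level. Of these 10 genes 0 were called with either peptide, with 2 at an unadjusted limma p below 0.05 in each case, again beside 19% and 18.3% of all genes. With both together 1 was, beside 3.84% of all genes called higher: Mmp2, the gelatinase that also cuts type IV collagen (0.20, adjusted p = 0.0376). It read 2135, 2172 and 1999 in the controls, 2387, 2384 and 2472 with PTH and 2417, 2527 and 2304 with PTHrP, with no overlap, and the call was lost without any 1 of control replicates 1, 2 and 3, PTH replicates 1, 2 and 3 and PTHrP replicates 1 and 2 (adjusted p 0.0647 to 0.126). Ctsk changed by -0.15 (limma adjusted p = 0.289) with PTH and -0.030 (0.883) with PTHrP, and Mmp9 by 0.14 (0.533) and -0.090 (0.727).

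The transforming growth factor beta (TGF-beta) axis is the textbook driver of collagen transcription. The list held genes of this axis together with other regulators of matrix genes, such as Sp1, Creb3l1, Yap1 and Srf. Of its 25 measured genes 2 rose and 3 fell with PTH, and 2 rose and 4 fell with PTHrP, beside 6.1% and 5.57% of all genes called in either direction. The list's median log2 change was -0.066 and -0.074. Ccn2, connective tissue growth factor, a matricellular target of TGF-beta, read 5057, 5415 and 5061 in the controls, 2771, 2708 and 2887 with PTH and 2433, 2559 and 2664 with PTHrP. It fell to 53.9% of control with PTH (-0.89 ± 0.055, SE, adjusted p = 0.000132) and to 49.3% with PTHrP (-1.02 ± 0.055, adjusted p = 6.71e-05), and both calls held in all 20 alternatives. The ligand Tgfb3 read 398, 426 and 393 in the controls, 276, 293 and 289 with PTH and 267, 325 and 289.9 with PTHrP. It fell by 0.48 on the log2 scale with PTH (adjusted p = 0.00797), a call that held in all 20 alternatives, and by 0.45 with PTHrP (adjusted p = 0.0109), a call lost when only the PTHrP and control arrays were fitted (0.0546).

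Of the receptors, the kinase Tgfbr1 read 1248, 1206 and 1091 in the controls, 1708, 1689.7 and 1795 with PTH and 1782, 1847 and 1626 with PTHrP. It rose with both peptides (0.55, adjusted p = 0.00376; 0.56, adjusted p = 0.00343), a call kept without any single array and lost with the mean of its 3 probe sets (0.305 and 0.0806). The co-receptor Tgfbr3, betaglycan, read 4879.5, 4986 and 4599 in the controls, 5893, 5785 and 5741 with PTH and 6012, 5991 and 5698 with PTHrP. It rose by this probe set (0.27, adjusted p = 0.0169; 0.29, adjusted p = 0.0128), while the mean of its 2 probe sets gave -0.14 (adjusted p = 0.552) with PTH and 0.11 (0.662) with PTHrP, so its direction with PTH depends on the probe set. The PTH call was also lost without any 1 of PTH replicates 1, 2 and 3 (adjusted p 0.0631 to 0.0648) and the PTHrP call without PTHrP replicate 1 (adjusted p 0.0565).

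Inside the cell, Smad3 carries the TGF-beta signal and Ski represses it. Smad3 read 595, 605 and 579 in the controls, 527, 535 and 515 with PTH and 465, 518 and 493 with PTHrP. The PTHrP fall passed (-0.26, adjusted p = 0.0252) and the PTH change did not (-0.17, adjusted p = 0.11); the former was lost without any 1 of control replicates 1, 2 and 3, PTH replicate 3 and PTHrP replicates 1 and 3 (adjusted p 0.0512 to 0.0844). Ski read 1189, 1292 and 1189 in the controls, 1064, 980.0 and 980.2 with PTH and 982, 1041 and 980.0 with PTHrP, and fell with both (-0.28, adjusted p = 0.0295; -0.28, adjusted p = 0.0281), calls lost without any 1 of control replicates 1, 2 and 3 and PTH replicates 2 and 3 (adjusted p 0.0566 to 0.12) for PTH and without any 1 of control replicates 1, 2 and 3, PTH replicate 3 and PTHrP replicates 1 and 3 (adjusted p 0.053 to 0.103) for PTHrP. Mrtfa, a coactivator of serum response factor, read 205, 223 and 197 in the controls, 165, 185 and 167 with PTH and 169, 179 and 168 with PTHrP. It changed by -0.25 (adjusted p = 0.0629) and -0.25 (0.0656), and fell with both together (-0.25, adjusted p = 0.0291). That call was lost without any 1 of control replicates 1 and 2, PTH replicates 1 and 3 and PTHrP replicates 1 and 3 (adjusted p 0.057 to 0.109).

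**Figure D4:**
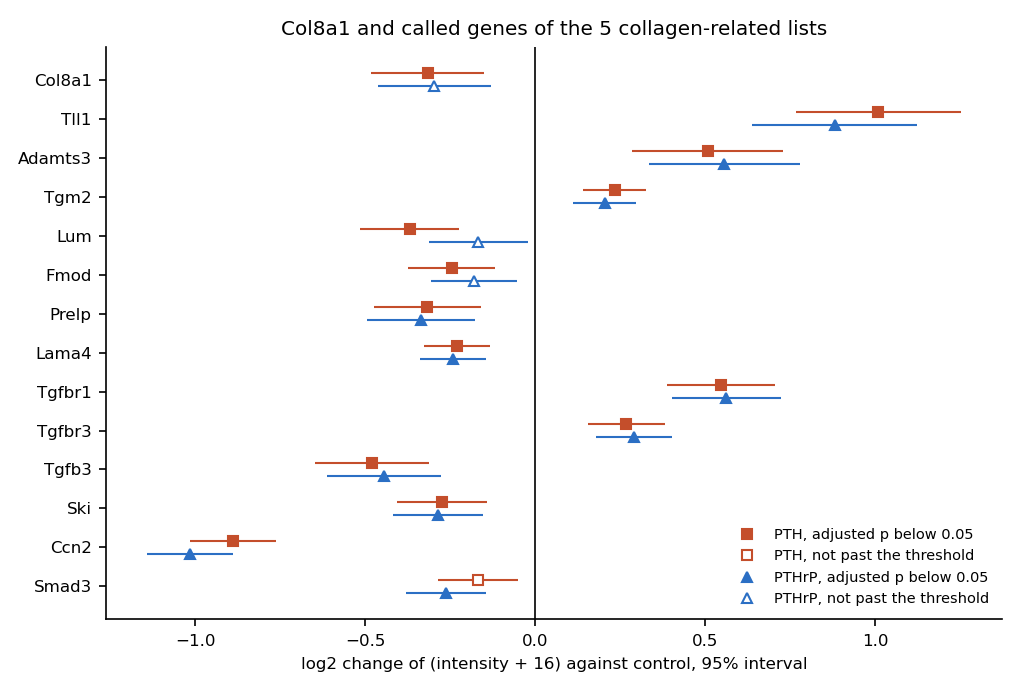
Log2 change of intensity + 16 against control with its 95% interval (limma, 3 arrays per group) for Col8a1 and for each gene of the 5 collagen-related lists that passed the threshold with PTH (squares) or PTHrP (triangles); open symbols mark a change that did not pass. Tll1, Adamts3, Tgm2, Tgfbr1 and Tgfbr3 lie to the right, Tgfbr3 with the reservation about its probe sets, and Ccn2 lies farthest to the left at -0.89 and -1.02.

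The marker lists of fibroblasts and of smooth muscle and pericytes, cells that make collagen, had lower sums in the treated arrays. Such sums weigh the brightest genes most, and the part of these cells in the results was not tested. The summed signal of 11 preadipocyte and fibroblast markers was 43212 to 44068 in the controls, 41414 to 41790.1 with PTH and 40043.9 to 42857 with PTHrP, with every treated array below every control. Of the 11, 1 fell in the test, Pdgfrb (3745, 3765 and 3658 in the controls, 3047, 2977 and 2974 with PTH and 2919, 3096 and 2773 with PTHrP; -0.31, adjusted p = 0.0111, and -0.35, adjusted p = 0.00717), a receptor of fibroblasts and pericytes. Its PTH call was lost without any 1 of PTH replicates 2 and 3 (adjusted p 0.0504 to 0.0567). Vim, Postn and S100a4, at 12256, 11418 and 7290 in the controls, weigh most in the fibroblast sum. Estimates above 0 were those of Pi16, at or below the dim level (0.45 with each peptide), and with PTHrP those of Dlk1 (0.073) and Dpp4 (0.10), none past the threshold. The other fibroblast markers had estimates below 0 with both peptides. The 7 smooth muscle and pericyte markers summed to 22129 to 22733 in the controls, 21041 to 21282 with PTH and 20072 to 21288 with PTHrP, and 1 fell, Myh11 (-0.38, adjusted p = 0.0227; -0.45, adjusted p = 0.0109). Its PTH call was lost without any 1 of control replicates 2 and 3 and PTH replicates 1, 2 and 3 (adjusted p 0.0743 to 0.083), and both calls were lost with the mean of its probe sets (0.151 and 0.0933). Acta2 and Tagln, at 12821 and 7392 in the controls, weigh most in that sum. With both peptides the estimates of Acta2, Myh11, Tagln, Cnn1 and Des were below 0. Those of Rgs5 (0.23 and 0.21) and Cspg4 (0.049 and 0.11) were above 0, neither past the threshold. The 1 gene called in each of these lists stands beside 3.14% of all genes called lower with PTH and 3.03% with PTHrP. The 8 adipocyte markers summed to 61764 to 64259, 63133 to 66513 and 61046 to 64185, which overlap. Of the 8, 2 were called with each peptide, beside 6.1% of all genes with PTH and 5.57% with PTHrP. Cidec, a lipid droplet protein, rose (0.28, adjusted p = 0.0375; 0.31, adjusted p = 0.0304), and Slc2a4, the insulin-responsive glucose transporter, fell (-0.33, adjusted p = 0.0231; -0.38, adjusted p = 0.0144). The Cidec calls were lost without any 1 of control replicates 1, 2 and 3, PTH replicates 1, 2 and 3 and PTHrP replicate 2 (adjusted p 0.0517 to 0.132) for PTH and without any 1 of control replicates 1, 2 and 3, PTH replicates 2 and 3 and PTHrP replicates 1 and 2 (adjusted p 0.0519 to 0.107) for PTHrP. Those of Slc2a4 were lost without any 1 of control replicates 1 and 3 and PTH replicates 1, 2 and 3 (adjusted p 0.0673 to 0.0823) for PTH and without any 1 of control replicate 3 and PTHrP replicate 2 (adjusted p 0.0514 to 0.0515) for PTHrP.

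Endothelial markers summed to 293 to 345 in the controls, 246 to 280.2 with PTH and 251 to 332 with PTHrP. This sum too was lower in every PTH array than in every control, while the PTHrP arrays overlapped the controls. In the same order macrophage markers summed to 1034 to 1131, 1105 to 1271 and 1095 to 1231, and epithelial markers to 109 to 131, 112 to 131 and 109 to 129. In the endothelial list Pecam1, Vwf, Emcn and Cldn5, and in the macrophage list Ptprc, Mrc1 and Itgam, were at or below the dim level. Within the chondrocyte and bone list Acan and Dmp1 were at or below it as well, and its sum was 909 to 938, 878 to 1016 and 879 to 944. The Schwann cell list summed to 493 to 525, 519.5 to 557 and 541 to 597, in which Ngfr rose with PTHrP (0.51, adjusted p = 0.0368; with PTH 0.34, adjusted p = 0.136), a call lost without any 1 of control replicates 1 and 3, PTH replicates 1, 2 and 3 and PTHrP replicates 1, 2 and 3 (adjusted p 0.0529 to 0.115). Of the macrophage list Csf1r rose with both peptides together (0.28, adjusted p = 0.032), a call lost without any 1 of control replicates 2 and 3, PTH replicates 1, 2 and 3 and PTHrP replicate 2 (adjusted p 0.0514 to 0.12). The other macrophage markers above the dim level did not pass. Estimates with PTH and PTHrP were below 0 for Adgre1 (-0.059 and -0.14), Cd68 (-0.050 and -0.17) and Lyz2 (-0.27 and -0.39). For Cd14 they were above 0 (0.099 and 0.095). The Ngfr and Csf1r calls stand beside 2.54% of all genes called higher with PTHrP and 3.84% with both together. The proliferation list summed to 5451 to 5622, 5008 to 5575 and 4658 to 5528.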

How the data were processed

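Biotinylated cRNA from 9 samples was read on mouse expression arrays, per the labels' protocols. The deposited table gives 1 intensity per probe set and array. How the authors summarised, background-corrected and scaled it, the sources used here do not say; that the scale is linear was inferred from the range of the values. The platform table gives 1 symbol to 34945 of the 45101 probe sets, several to 932 and none to 9160, and 64 are array controls. For a gene with several sets (27 of the collagens; 15 have 1) the set with the highest mean over the arrays was taken, which leaves 18193 genes.

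The model was limma 3.58.1 (R 4.3.3, statmod 1.5.0) on log2(intensity + 16): 1 mean per group over all 9 arrays, empirical Bayes variance, two-sided tests, Benjamini-Hochberg adjustment over all genes, threshold 0.05. Log2 changes are differences on this scale, which understate the change of dim genes. The fit was tested on simulated data. Figures were made with Python 3.11.15 and matplotlib 3.10.9.

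The members, lists and naming rule were chosen with earlier results of these data known. Every member is accounted for; signals in every array are given for members past the threshold, the 8 measured members that changed most with each peptide and 13 structural collagens, and of each pathway list for members past the threshold, with values for the 3 largest changes. Listed genes without a probe set of 1 symbol (among them Fkbp10, Adamts2, Adamts14, Loxl2, Itga11, Runx2, Col6a6, Col21a1, Col28a1, and the markers Plin1, Cfd, Ly6a, Bglap and Ccnb1) are not analysed here; Mkl1 was matched as Mrtfa. Alternatives covered normalization, pseudocount, filter, probe sets, variance, weights, design, threshold and each array left out.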

Additional observations from a re-analysis of the deposited data

How the results depend on the processing

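The count of called collagen genes is 1 or 0 in nearly every setting and rests on Col8a1. With PTH it was 0 instead of 1 with the mean of probe sets, a pseudocount of 1, the replicate block, only the 2 groups compared, an adjusted p below 0.01 or a 1.5-fold minimum, and 0 to 2 with 1 array left out. With PTHrP it was 1 instead of 0 with quantile normalization, centring on the median, the dimmest 40% left out, a pseudocount of 64 or a trended and robust variance, and 0 to 1 with 1 array left out. With both peptides it was 0 instead of 1 with the mean of probe sets, an adjusted p below 0.01 or a 1.5-fold minimum, and 0 to 1 with 1 array left out; without PTH replicate 2 the 1 gene was the faint Col9a2. PTH against PTHrP gave 0 throughout. Tgfbr3 turned from rise to fall with the mean of probe sets, at -0.14 with PTH and -0.014 with both peptides, a result of averaging in its second probe set. The mean of probe sets also lost the PTH call of Tgm2 (limma adjusted p = 0.0651) and the PTHrP calls of Smad3 (0.0803) and Ngfr (0.0875). The call of Mmp2 with both peptides together was lost with it too (0.0877). The mean of log2 values over the 26 genes above the dim level, in place of the summed signal of all 42, put PTH at 97.4% of control. Same-numbered arrays correlated by -0.17 to 0.12 after removing group means, and differently numbered ones by -0.17 to 0.21, so these correlations show no pairing by number. Whether arrays shared a mouse or a batch was not tested. With the replicate block the Col8a1 change with PTH had a limma adjusted p of 0.0704 and the count was 0. With the block these calls were lost too: the PTH and PTHrP calls of Adamts3, Tgm2, Prelp, Lama4, Ski and Cidec, the PTH call of Fmod, the PTHrP calls of Smad3 and Ngfr and the calls of Mmp2 and Csf1r with both peptides together (adjusted p 0.0516 to 0.109). Centring on the median lost the PTH and PTHrP calls of Prelp and Cidec (limma adjusted p 0.0590 to 0.0864). It also lost the PTH calls of Fmod, Lama4 and Slc2a4 (0.0518 to 0.0749) and the PTHrP calls of Tgm2 and Smad3 (0.0734 and 0.0617). The calls of Mmp2, Mrtfa and Csf1r with both peptides together went as well (0.0547 to 0.0604). Fitting only the 2 groups compared lost the PTH calls of Fmod and Ski (limma adjusted p 0.0643 to 0.0660). It also lost the PTHrP calls of Adamts3, Tgm2, Prelp, Lama4, Tgfbr3, Smad3, Ski, Cidec, Slc2a4, Myh11 and Ngfr (0.0563 to 0.109). This setting is undefined for both peptides together. Limits: 3 arrays per group from 1 time point and 1 dose, and signals near the dim level or the top of the scale carry little information on change.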

Other observations

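Among the 16 faint collagen genes, 3 had an unadjusted limma p below 0.05 in a comparison, chosen after their values were seen. Col2a1, the cartilage collagen, read 22.4, 28.1 and 30.2 in the controls, 35.6, 35.7 and 30.9 with PTH and 33.2, 26.5 and 27.5 with PTHrP, with PTH above every control (limma unadjusted p = 0.0327, adjusted p = 0.208). Col9a2 read 15.5, 10.9 and 10.7 in the controls, 5.19, 13.1 and 7.90 with PTH and 6.18, 6.90 and 5.19 with PTHrP, with PTHrP below every control (unadjusted p = 0.0148, adjusted p = 0.137). Col9a3 read 4.32, 8.40 and 14.1 in the controls, 9.68, 16.2 and 16.3 with PTH and 2.72, 2.69 and 12.7 with PTHrP, and differed between PTH and PTHrP at an unadjusted p of 0.0475 (adjusted p = 0.999). None passed the threshold.

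Several collagen genes lie next to each other in RefSeq on GRCm38.p6 (Col3a1 with Col5a2, Col6a1 with Col6a2, Col4a1 with Col4a2, Col4a5 with Col4a6, Col9a1 with Col19a1, Col4a3 with Col4a4 and Col6a4 with Col6a5). By their brightest probe sets the bright pairs changed little: with PTH the log2 changes were 0.014 and -0.050 for the first pair, -0.029 and -0.039 for the next and 0.0099 and 0.0038 for the pair with overlapping promoter windows. The dimmer probe sets of Col3a1 and Col5a2, given above, had estimates of opposite sign. Whether neighbours move together was not tested.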
